A study of Homo sapiens with 3 samples.

Results

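Gene expression in HCT116 cells carrying UHRF1 hairpin 2 was set against that in HCT116 cells carrying a scrambled hairpin, each measured on 1 Affymetrix array, which are 2 of the 3 arrays of the study. HCT116 is an established human colorectal carcinoma line. All cells were infected with lentivirus encoding a short hairpin RNA (shRNA) and collected after puromycin selection for 6 days, so the control shares the virus, the drug and the selection. The arrays were compared over every probe set annotated to 1 gene, 41091 of 54613. A second hairpin against UHRF1, hairpin 5, was on the remaining array and is given only for context. It was compared with the same control array, so the differences of the hairpins from control are not independent. Unless stated otherwise, a difference is the log2 level under hairpin 2 less that of the control. With 1 array a side there was no replicate error, no test was possible, and an effect of the hairpin cannot be told apart from one of the culture or the array.

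UHRF1 recognises hemimethylated DNA behind the replication fork and unmodified arginine on the tail of histone H3, and brings the maintenance methyltransferase DNMT1 to newly made DNA. Loss of DNA methylation is known to let silenced genes and repeats be transcribed in cancer cells. Double-stranded RNA from repeats can be read by the cytosolic sensors RIG-I (RIGI) and MDA5 (IFIH1), which lead to interferon production. Interferon acts through JAK kinases, STAT proteins and IRF9 on a common DNA element in the promoters of its target genes. Many of their products block viral replication or entry.

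Where a gene had several probe sets, it was represented by its brightest probe set, judged by the mean of the 3 arrays. Of 19775 genes, 11865 were retained because this mean lay at or above the 40th percentile, a log2 level of 3.28. The array medians were 3.0 for control and 2.98 for hairpin 2. The epithelial genes EPCAM, KRT8, KRT18 and KRT19 read between 10.13 and 12.26 on both arrays, and 7 of 8 epithelial markers were retained. VIL1, a structural protein of the brush border, was near background at 3.13 and 3.12. Of 10 leukocyte markers measured, 1 was retained (CD3D, at 3.18 and 3.48), and their levels spanned 2.51 to 3.18 on the control array and 2.51 to 3.48 with hairpin 2. Of 12 fibroblast and endothelial markers 4 were retained, and their summed linear level was 141 on the control array and 172 with hairpin 2. Of 10 neuronal markers 4 were retained, with sums of 763 and 1336, most of it from TUBB3, a tubulin also found in tumour lines (9.29 and 10.21). Their part in the differences was not tested.

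UHRF1 itself read 8.54 in control cells, 6.20 under hairpin 2 and 6.67 under hairpin 5. The hairpin 2 array was the lowest of the 3, at 19.6% of the control level, and only KRT7 differed more in that direction among retained genes. UHRF1 has a single probe set on this array, so no other probe set bears on that value. Its paralog UHRF2 read 5.63 on the control array and 5.56 with hairpin 2. DNMT1 was 0.12 higher, and the de novo methyltransferases DNMT3A and DNMT3B were 0.00 and 0.11 higher. Of the 21 retained genes of the DNA methylation machinery, UHRF1 was the 1 past 2-fold, and the list median was 0.09. HELLS, a remodelling ATPase needed for DNA methylation, was 0.32 higher by its brightest probe set, while its 3 retained probe sets spanned −0.45 to 0.32.

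Few genes differed strongly, and the larger differences ran upward. The median over retained genes was 0.03 with an SD of 0.39, and 86.7% of the genes lay within 0.5 of the control. At least 2-fold higher stood 137 genes (1.15% of those retained), and 68 (0.573%) stood at least 2-fold lower, 205 (1.73%) in all. At 4-fold the counts were 32 higher and 3 lower, and at 8-fold 13 higher and 0 lower. Genes of the interferon and antigen lists made up 35 of the 137 at 2-fold, 21 of the 32 at 4-fold, 11 of the 13 at 8-fold and 6 of the 6 at 16-fold. The signalling, effector and antigen lists held 22, 42 and 15 of the 11865 retained genes. The members of those lists were chosen with results of these arrays known.

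**Figure D1:**
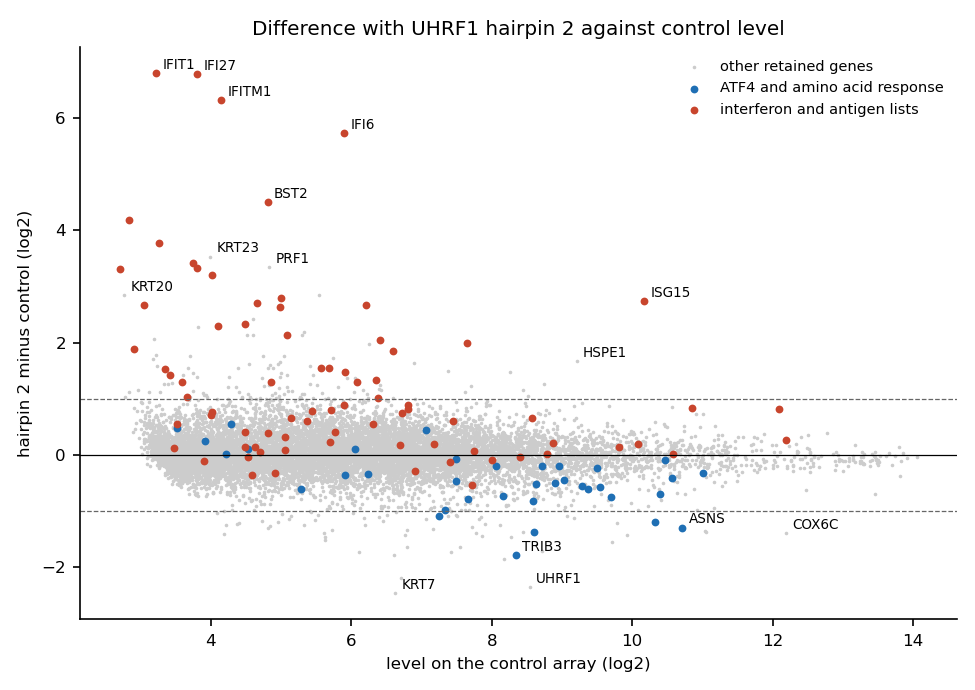
Each point is a retained gene, with its log2 level on the control array on the x axis and hairpin 2 minus control (log2) on the y axis; dashed lines mark 2-fold. Red points are members of the interferon and antigen lists and blue points members of the ATF4 list: IFIT1 stands highest at 6.79, and TRIB3, at −1.78, is the lowest blue point.

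Interferon-stimulated effectors were the group furthest from the control. Of 42 retained members, 28 were at least 2-fold higher and 0 lower, beside 1.15% and 0.573% over all retained genes, and the median difference was 1.54. The filter admitted 6 members whose control level lay below it, through their level with hairpin 2. Over all 59 members measured, with no filter, 30 were 2-fold higher and 0 lower, beside 0.728% and 0.364% of all 19775 genes, and the median was 1.02. Members that stayed at background on both arrays included MX2 (2.94 on the control array), RSAD2 (2.61), GBP1 (2.54) and CXCL10 (2.71), which differed by −0.04, 0.07, −0.04 and −0.12.

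The largest differences lay in genes that were low or moderate on the control array. IFIT1, which binds foreign RNA by its unmodified end, read 3.22 in control cells, 10.01 under hairpin 2 and 5.41 under hairpin 5. IFI27, a small interferon-inducible membrane protein, read 3.81, 10.58 and 4.04 in the same order. IFITM1, which hinders membrane fusion by viruses, read 4.15, 10.46 and 5.66. In each case hairpin 2 stood far above both other arrays, and hairpin 5 lay nearer to the control. The difference from control was 6.79 for IFIT1, 6.77 for IFI27 and 6.31 for IFITM1. The control level of IFIT1 lay under that of the filter, so its difference and rank have no exact size. IFI6, of the same protein family as IFI27, was already expressed in the control and read 5.90, 11.63 and 6.37. BST2, which holds budding virions at the cell surface, read 4.81, 9.31 and 5.45. ISG15, a ubiquitin-like modifier, began highest at 10.17 and read 12.92 with hairpin 2 and 10.35 with hairpin 5, a 6.69-fold difference between hairpin 2 and control. Its conjugation enzymes UBE2L6 (E2) and HERC5 (E3) were 1.34 and 2.13 higher with hairpin 2, and USP18, which removes ISG15 and dampens receptor signalling, 1.30 higher.

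Members of the 2′-5′ oligoadenylate synthetase family, not all of which make the activator of RNase L, were measured by several probe sets. OAS1 read 2.71 in control cells, 6.01 under hairpin 2 and 3.05 under hairpin 5, and its 2 retained probe sets averaged 2.61 ± 0.97 (SD, n = 2 probe sets). Both lay under the level of the filter on the control array, at 2.71 and 2.75, so this size is uncertain. OASL averaged 2.67 ± 0.94 and OAS3 1.93 ± 1.23 over 2 probe sets each. All 6 of these probe sets were above the control by more than 1. Their size varied by over 1 within a gene, so the fold of a single probe set is an uncertain measure of the gene. OAS2 was at background, at 2.73 and 2.79.

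Sensors and signalling components gave a divided picture. Of 22 retained members, 6 were at least 2-fold higher and 0 lower, beside 1.15% and 0.573% of all retained genes, with a median of 0.41. The RNA sensors stood highest with IRF9 and IRF7: IFIH1 read 3.75 in control cells, 7.17 under hairpin 2 and 3.73 under hairpin 5. RIGI was higher by all 3 of its probe sets (2.67 ± 0.77, SD over probe sets). IRF9, the DNA-binding subunit of the interferon-activated complex, read 6.22, 8.88 and 5.95, and IRF7, which drives interferon genes, 4.49, 6.82 and 4.23. For IFIH1, IRF9 and IRF7 the hairpin 5 array lay at or below the control. EIF2AK2, the RNA-activated kinase PKR, was 1.85 higher. Other members of the list lay nearer to the control: the receptor chains IFNAR1 and IFNAR2 differed by 0.12 and 0.24, the adaptor MAVS by −0.09 and the kinase TYK2 by 0.40. JAK1 was the lowest retained member at −0.54. The interferon ligands themselves were not seen: all 7 measured, among them IFNB1 (2.54 and 2.64) and IFNL1 (3.10 and 3.14), lay under the level of the filter on both arrays and differed by at most 0.22.

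**Figure D2:**
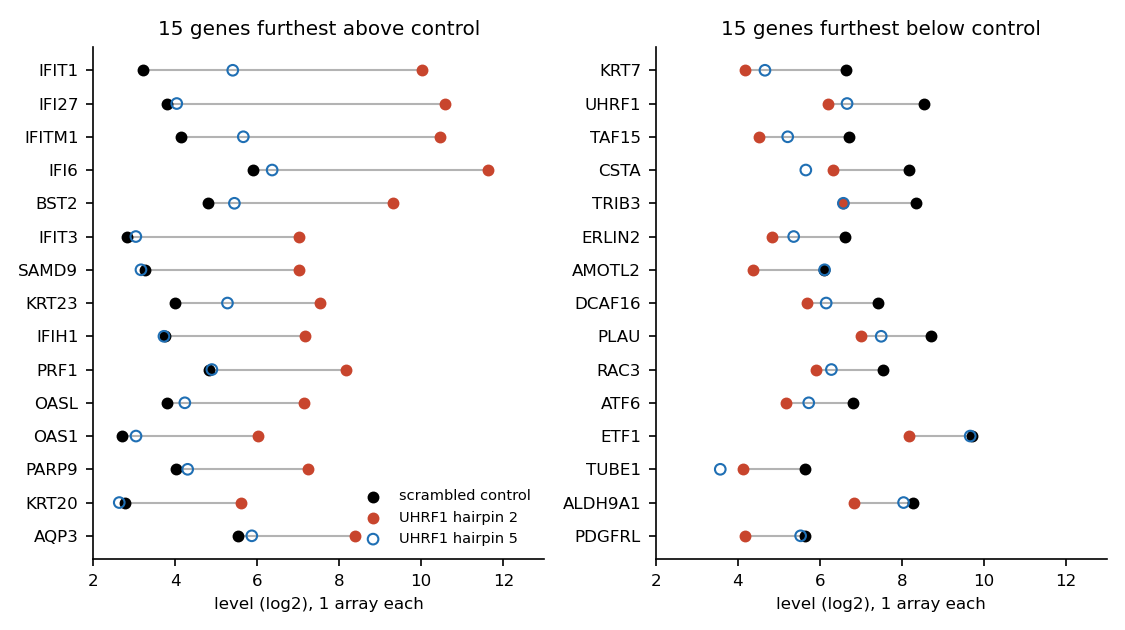
Log2 levels of the 15 retained genes furthest above (left) and below (right) the control with hairpin 2, with 1 array per point; black is the scrambled control, red hairpin 2 and open blue hairpin 5. IFI27, SAMD9, IFIH1 and PRF1 lay close together on the control and hairpin 5 arrays, while IFIT1, IFITM1 and KRT23 were also more than 1 above the control with hairpin 5.

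Promoters of many higher interferon genes held a sequence element that the choice of arrays and probe sets did not use. The interferon response element was searched on both strands as GAAA, any 2 bases and GAAA again, in RefSeq promoters of GRCh38.p14, from 250 bases before to 50 after each listed start. It was in a listed promoter of 23 of the 112 genes 2-fold higher that had one (20.5%), 1 of 53 genes 2-fold lower (1.89%) and 335 of 9592 retained genes (3.49%), and in 3.57% of all promoters of the table. Among the higher genes it was held by 21 of 31 members of the interferon and antigen lists and by 2 of the other 81, ABCC2 and MYD88. These lists name known interferon targets, for which the element is established. Of interferon-stimulated effectors with a listed promoter, 19 of 25 that held the element were 2-fold higher, and 7 of 10 that did not. Their median differences were 2.13 and 1.32, so the element was also in effectors that were not 2-fold higher. Most genes with the element were not 2-fold higher. Of all 335 retained genes that held it, 23 were, beside 1.15% of all retained genes, and their median difference was 0.084. Of the 299 on none of those lists, 2 were 2-fold higher, and the median difference of the 299 was 0.045. Those lists were chosen with results of these arrays known, so the remainder cannot show what the element alone marks. The stretches below carry the element in the genes with the largest differences and in ISG15, 5′ to 3′ along the gene, with each match in capitals (a pair of TTTC is the element on the other strand). In BST2 and ISG15 matches overlap. They lie at chr10:89392477-89392559 (plus strand) for IFIT1, chr14:94110598-94110680 (plus strand) for IFI27, chr11:313970-314039 (plus strand) for IFITM1, chr1:27672246-27672378 (minus strand) for IFI6, chr19:17405715-17405790 (minus strand) for BST2 and chr1:1013354-1013429 (plus strand) for ISG15, all upstream of the listed start.
IFIT1: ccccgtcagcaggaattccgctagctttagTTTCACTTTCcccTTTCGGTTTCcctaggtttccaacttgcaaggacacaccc
IFI27: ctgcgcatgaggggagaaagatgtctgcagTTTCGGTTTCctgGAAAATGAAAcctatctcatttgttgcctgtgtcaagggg
IFITM1: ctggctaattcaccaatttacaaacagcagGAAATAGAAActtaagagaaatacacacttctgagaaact
IFI6: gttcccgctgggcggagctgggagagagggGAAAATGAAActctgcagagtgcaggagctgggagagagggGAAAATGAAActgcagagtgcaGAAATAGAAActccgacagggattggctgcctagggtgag
BST2: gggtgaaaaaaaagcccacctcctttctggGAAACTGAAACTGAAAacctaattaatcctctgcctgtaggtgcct
ISG15: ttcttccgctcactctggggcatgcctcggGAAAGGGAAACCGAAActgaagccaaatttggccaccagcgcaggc
IFIT1 and IFI27, with the largest differences, each hold 2 matches ending 93 and 85 bases before the start site, and IFITM1 holds 1. A match describes the letters only, and binding was not measured.

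Some of the genes 2-fold higher were neighbours. Of the 137, 15 lay in 6 runs of adjacent genes, in chromosomal order over 19735 genes. No expected number of runs was worked out, so these counts are a description only. The runs included IFIT2, IFIT3, IFIT1 and IFIT5 on chromosome 10 and OAS1 and OAS3 on chromosome 12. Others were PARP9 and DTX3L on chromosome 3, and HERC6, HERC5 and NAP1L5 on chromosome 4. Apart from NAP1L5, these are effectors already counted above, so their runs are no separate result. NAP1L5, an imprinted nucleosome assembly gene, read 3.46, 4.74 and 3.24 on the control, hairpin 2 and hairpin 5 arrays. Outside the interferon lists, the run of KRT20 and KRT23 lay on chromosome 17. Lower genes formed 3 such runs of a pair each, among them CAV2 and CAV1 on chromosome 7.

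Antigen presentation genes differed less than the effectors. Of 15 retained genes of MHC class I processing, 13 were above the control and 1 was 2-fold higher, beside 53.6% and 1.15% of all retained genes, and 0 were lower, with a median of 0.20. PSMB9, an immunoproteasome subunit, read 6.39 in control cells, 7.41 under hairpin 2 and 5.90 under hairpin 5. TAP1, a subunit of the peptide transporter, was 0.79 higher, HLA-E 0.66 and NLRC5, the activator of class I genes, 0.55. The abundant light chain B2M was 0.27 higher by its brightest probe set and −0.03 by the other, and HLA-B 0.20 higher. PSMB10 was the lowest retained member at −0.12, and ERAP1, not retained, differed by −0.43.

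Most of the genes 2-fold higher, 102 of 137, were in none of the interferon or antigen lists. The lists do not name every interferon target, so 102 is not a count of genes outside the interferon response. KRT23, a type I keratin, read 4.0 in control cells, 7.52 under hairpin 2 and 5.28 under hairpin 5, and KRT20, a keratin of differentiated intestinal epithelium, 2.77, 5.62 and 2.64. KRT20 was thus at background on the control and hairpin 5 arrays, and so has no reliable fold. The other 13 retained genes of intestinal differentiation and mucins lay between −0.44 (CEACAM5) and 0.50 (CEACAM1), so KRT20 stood apart from its list, whose median was −0.01. AQP3, a water and glycerol channel, read 5.55, 8.39 and 5.87, with 3 probe sets between 0.69 and 2.84.

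PRF1, perforin, which cytotoxic lymphocytes use to open target membranes, read 4.83 in control cells, 8.18 under hairpin 2 and 4.90 under hairpin 5. Both of its probe sets were above the control (2.85 ± 0.70, SD, n = 2 probe sets). The leukocyte markers measured beside it, PTPRC, CD3E and NKG7 among them, differed by −0.20 to 0.30, and all but CD3D were under the level of the filter. Their summed linear level was 68.1 on the control array and 71.7 with hairpin 2. In bulk RNA, a difference in the number of cells of a type and one in RNA per cell cannot be told apart.

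Other genes outside the lists were 2-fold higher by every retained probe set, some of them named for that agreement. SAMD5 averaged 2.19 ± 0.33 and ACSL5, an acyl-CoA synthetase of the intestine, 2.07 ± 0.14, over 2 probe sets each. LAMB1, a laminin chain, averaged 1.85 ± 0.12 and DHRS2, a mitochondrial reductase, 1.93 ± 0.40, over 2 probe sets each. With hairpin 5 their brightest probe sets were within 0.5 of the control, and the second probe set of ACSL5 was 0.88 above it. SIGIRR, an inhibitory receptor of the interleukin-1 family, was 1.11 and 1.12 higher by its probe sets.

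Histone genes leaned upward, with 10 of 11 retained members above the control and a median of 0.46, beside 53.6% above 0 and a median of 0.03 over all retained genes. With no filter the lean was smaller. Over all 16 members measured, 13 were above 0, the median was 0.23 and the lowest difference −0.335, beside a median of 0 over all genes. H1-2, a linker histone, read 5.31 in control cells, 7.45 under hairpin 2 and 5.01 under hairpin 5. H2AC6, a core histone, read 3.19, 5.25 and 3.4. These were the 2 members past 2-fold, beside 1.15% of all retained genes 2-fold higher. Each has 1 probe set, and H2AC6 was under the level of the filter on the control array. The other retained members lay between −0.07 for H2AZ1 and 0.58 for H2AX.

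Genes 2-fold lower differed by less than those 2-fold higher, with a median of −1.25 against 1.39. KRT7, a keratin of simple epithelia, read 6.63 in control cells, 4.17 under hairpin 2 and 4.66 under hairpin 5; its other 3 probe sets were not retained. CSTA, a cysteine protease inhibitor of the epithelium, read 8.17, 6.32 and 5.66, and PLAU, the urokinase, 8.71, 7.0 and 7.5. In these genes both UHRF1 hairpins lay below the control. For other genes the hairpin 5 array lay nearer to the control. AMOTL2, an angiomotin scaffold of the Hippo pathway, read 6.10, 4.38 and 6.12. ETF1, the factor that ends translation at stop codons, read 9.72, 8.17 and 9.67 by its brightest probe set and 7.47, 7.35 and 7.13 by the other, which was nearest to the control under hairpin 2. PDGFRL read 5.63, 4.18 and 5.53. COX6C, a subunit of cytochrome oxidase, was the gene past 2-fold with the highest control level and read 12.19, 10.80 and 12.13. Hairpin 5 minus control was 0.01 for AMOTL2, −0.10 for PDGFRL and −0.06 for COX6C, each from 1 probe set. With 1 array per hairpin no test of the difference between hairpins was possible.

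Several genes were lower by every retained probe set, most of them named for that agreement, so the agreement itself is no result. CAV1, the main caveolin, averaged −1.32 ± 0.04 over 2 probe sets, and CAV2 −0.91 ± 0.44 over 3. ARTN, a ligand of the RET receptor system, averaged −1.27 ± 0.25 over 3 probe sets, and GDA, guanine deaminase, −1.47 ± 0.11 over 2. SERTAD2, a transcriptional coregulator, averaged −1.07 ± 0.01, and NIBAN1 −1.16 ± 0.18. CST6, cystatin M, averaged −1.07 ± 0.14, although its brightest probe set, at −0.97, missed 2-fold. With hairpin 5, the brightest probe sets of all 7 were also below the control, from −0.30 for CAV1 to −1.49 for SERTAD2.

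Genes of the ATF4 and amino acid response, which restore amino acid supply under stress, were mostly below the control. Of 36 retained members, 29 were below 0, while 53.6% of all retained genes were above 0. In this list 5 were 2-fold lower and 0 higher, beside 0.573% and 1.15% of all retained genes, and the median was −0.46. TRIB3, a pseudokinase that feeds back on ATF4, read 8.34 in control cells, 6.56 under hairpin 2 and 6.58 under hairpin 5, and its probe sets gave −1.78 and −0.65. ASNS, asparagine synthetase, read 10.72, 9.43 and 8.68, and a second probe set at background differed by −0.07. CEBPG, a partner of ATF4, read 7.25, 6.17 and 5.33. Both hairpins lay below the control in all 3 genes, and in ASNS and CEBPG hairpin 2 was the nearer to it. DDIT3, the pro-apoptotic factor CHOP, was 2.58-fold lower with hairpin 2 and PSAT1, of serine synthesis, 2.27-fold lower by its brightest probe set, while the other gave −0.30. CEBPG gave −1.09 and −0.69. Against the trend stood NUPR1 (0.55), a stress-induced chromatin protein, and CTH (0.48), an enzyme that makes cysteine.

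The element bound by ATF4 with C/EBP proteins, searched as TGATGNAA on both strands, was in a listed promoter of 12 of 31 retained members of this list (38.7%), against 2.66% of 9592 retained genes and 4 of 53 genes 2-fold lower (7.55%). The list names known genes of the ATF4 response, so its high share is a property of the list and not a result of hairpin 2. The 12 members with the element had a median difference of −0.37, with 9 below 0. The 19 without it had −0.57, with 17 below 0. The matches of ASNS and CEBPG, the members 2-fold lower that hold one, lie at chr7:97872439-97872506 (minus strand) and chr19:33374041-33374108 (plus strand), shown 5′ to 3′ along the gene with the match in capitals.
ASNS: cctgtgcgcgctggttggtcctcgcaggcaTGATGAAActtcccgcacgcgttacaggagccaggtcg
CEBPG: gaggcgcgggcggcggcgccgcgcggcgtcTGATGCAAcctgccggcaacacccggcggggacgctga
The AP-1 element, TGANTCA, was in 12.5% of promoters of higher genes, 7.55% of those of lower genes and 6.90% of those of all retained genes.

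Endoplasmic reticulum and growth factor response genes were divided. Over all retained genes, 0.573% were 2-fold lower and 1.15% higher. Of 24 retained genes of the unfolded protein response, 1 was 2-fold lower, 0 higher and the median was −0.08. That gene was ATF6, a membrane-bound sensor, whose 3 retained probe sets spanned −1.63 to 0.06. HSPA5, the main chaperone of the compartment, was lower by both probe sets (−0.58 ± 0.05). Among 31 immediate early, AP-1 and ERK feedback genes, PLAU and the AP-1 subunit FOSL1 were 2-fold lower and the median was −0.08. FOSL1 read 7.86 in control cells, 6.42 under hairpin 2 and 6.22 under hairpin 5. EGR1, an early growth response factor, stood on the other side at 1.12 ± 0.21 over its 3 probe sets, and read 7.98, 8.87 and 6.80, so that it was above the control with hairpin 2 and below it with hairpin 5.

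The probe sets of a gene mostly shared their direction but not their size. Of the 137 higher genes, 85 had 1 retained probe set and 52 had several. In 43 of these 52 (82.7%) all were above 0, and in 16 all were past 2-fold. Of the 68 lower genes, 29 had several, and in 21 (72.4%) all were below 0 and in 5 all past 2-fold. Over all 4866 retained genes with several, 52.2% had a uniform sign, 0.329% had every probe set 2-fold higher and 0.103% every one lower. The brightest probe set made the call, and the remaining retained ones did not enter it. They are not a free check, since the filter used a mean that includes hairpin 2. The second probe set of SAMD9, at 2.57 in control cells and 2.88 under hairpin 5, passed only through 4.96 under hairpin 2. Probe sets of IFIH1 that differed by 0.21 and 0.03 were not retained. The shares of uniform sign and the medians of higher genes were thus partly set by the filter. For the higher genes these 70 had a median of 0.73, with 25 past 2-fold, where the brightest ones of the same genes had a median of 1.35. For the lower genes these 42 had a median of −0.36, with 7 past 2-fold, against −1.24. The brightest probe sets, on which the choice rested, thus gave larger sizes than the others. TAF15, an RNA-binding protein, had the widest gap of the lower genes, with −2.19 and 0.24, and ERLIN2, of the endoplasmic reticulum membrane, gave −1.78 and −0.38.

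**Figure D3:**
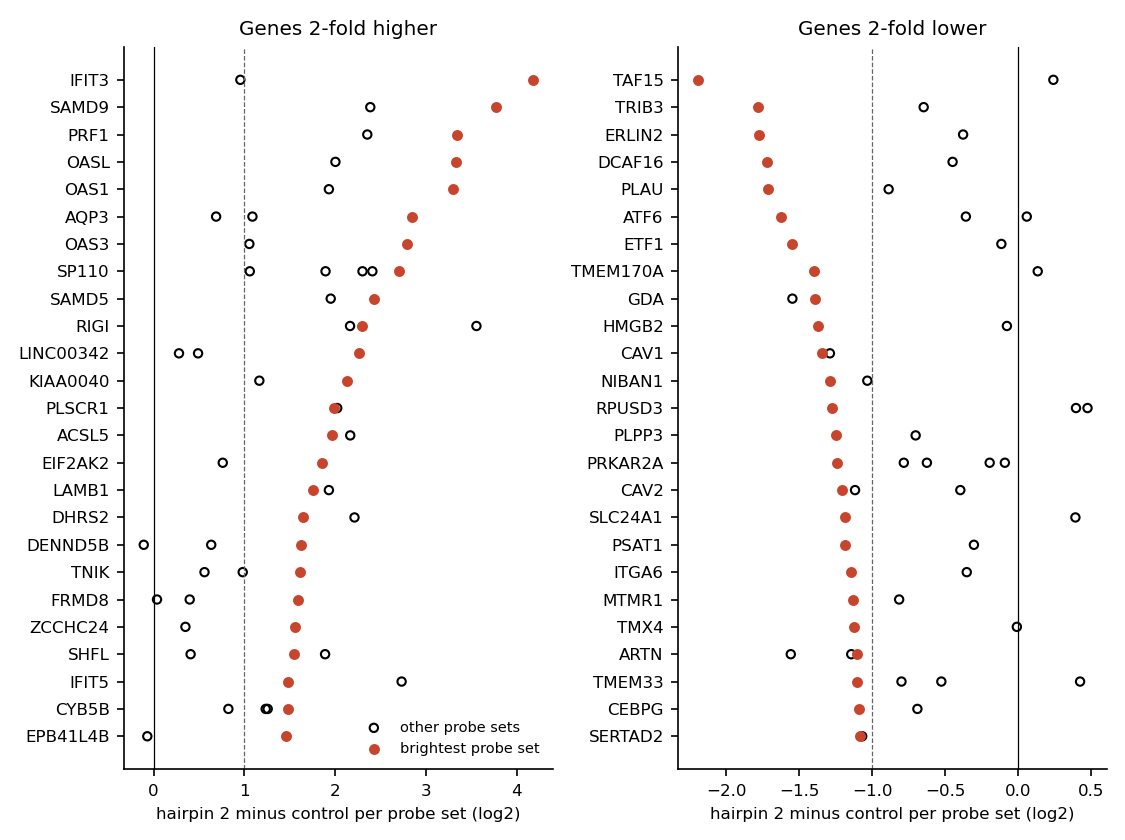
Each row is a gene 2-fold higher (left) or lower (right) with at least 2 retained probe sets, the 25 with the largest difference on each side; the x axis is hairpin 2 minus control (log2) per probe set, red for the brightest probe set that made the call and open for the others. All 5 probe sets of SP110 lie at 1.06 or above, while the probe sets of TAF15 lie at −2.19 and 0.24.

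Some genes had probe sets on both sides of 0. In 22 genes probe sets reached 0.5 in both directions, none of them among the genes past 2-fold. EGFR, the receptor for epidermal growth factor, spanned −0.86 to 0.84 over 7 retained probe sets, RAB27A, a GTPase of vesicle secretion, −1.17 to 0.72 over 5, and TMOD3, which caps actin filaments, −0.78 and 0.76. FBXO45 spanned −0.72 to 0.72 and N4BP2L2 −1.0 to 0.71. The deposited values do not say which transcripts these probe sets share.

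Among retained genes, the direction of the differences went with the level on the control array. Genes 2-fold higher had a median level of 4.86 on the control array and 6.47 with hairpin 2, and genes 2-fold lower 6.80 and 5.54, while all retained genes had medians of 5.77 and 5.87. In the lowest of 5 equal groups by control level, 41 genes were higher and 0 lower. In the highest, 9 were higher and 24 lower. The lowest value on the control array was 1.95, so a gene near background can hardly read 2-fold lower, and the control level enters the difference itself. The filter used the mean of all arrays, so a gene with a control level under it was retained only if a hairpin array read above it. The 4 genes 2-fold lower that were not retained read 3.35 to 3.97 on the control array, within the range of the lowest group (2.71 to 4.04). The counts of that group were thus partly set by the filter. On the control array 16 higher genes were under the level of the filter, 6 of them of the interferon and antigen lists, and 121 were above it. Among lower genes, 5 went under it with hairpin 2.

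**Figure D4:**
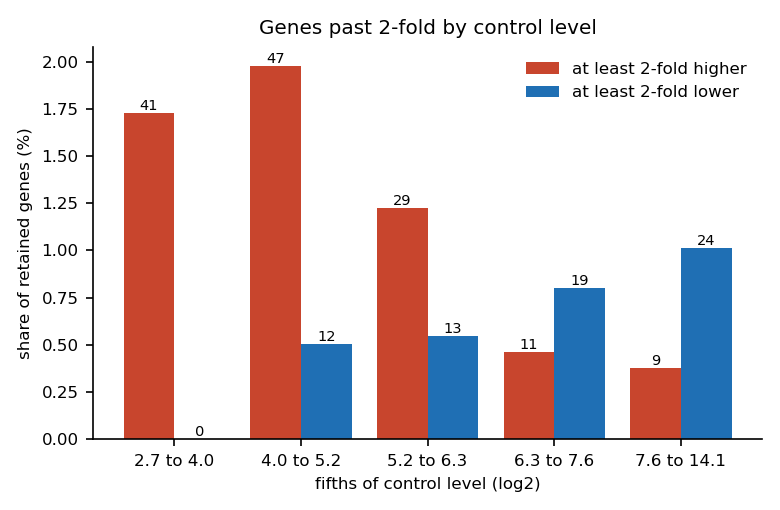
Share of retained genes at least 2-fold higher (red) or lower (blue) with hairpin 2, in 5 groups of equal size by log2 level on the control array; the number above a bar is its count of genes. Higher genes go from 41 in the lowest group to 9 in the highest and lower genes from 0 to 24. The filter on the mean of all arrays partly set the counts of the lowest group.

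Genes that DNA methylation is known to silence were mostly at background. Of 29 listed cancer-testis and germline genes measured, 5 were retained, and 0 of these were past 2-fold, beside 1.73% of all retained genes. TEX19, a testis-expressed gene outside that list, was retained and was 1.46 higher. MAGEA1 read 4.16 in control cells, 5.05 under hairpin 2 and 4.32 under hairpin 5. MAGEA6 went the other way, at 8.65, 7.93 and 8.86. Without the filter, MAGEA4 read 2.31, 3.70 and 2.62, which is low on every array. Of 41 genes whose promoters are known to be methylated in colorectal tumours, 21 were retained, 0 were past 2-fold and the median was −0.10. Their extremes were NDRG4 at 0.66 and IKZF1 at −0.73. Among 7910 genes that were not retained, 7 were 2-fold higher and 4 lower, the former including GJA1, a gap junction protein (2.30 and 4.26 on the control and hairpin 2 arrays), and IFI44, an interferon-stimulated gene (2.6 and 4.2).

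Promoters of the interferon and antigen genes 2-fold higher held few CpG dinucleotides, with a median of 12 in 300 bases over 31 genes, where the median was 28 over 9592 retained genes. Promoters of the other 81 higher genes had a median of 26 and those of 53 lower genes 27. No median was taken over members of the interferon and antigen lists that were not 2-fold higher. The low count thus cannot be tied to the difference with hairpin 2. For a gene with several listed starts the promoter with most CpG was counted.

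The remaining lists lay nearer to the control. Their counts stand beside 53.6% of all retained genes above 0 and 1.73% past 2-fold. S phase genes had a median of 0.20, with 23 of 34 above 0 and 0 past 2-fold, and glycolysis and hypoxia genes 0.19, with 20 of 26 above 0. G2 and mitosis genes had a median of −0.07, apoptosis regulators −0.03 and Polycomb and H3K9 methylation genes 0.09. Cholesterol and fatty acid genes had a median of −0.02, NF-kB genes 0.03 and p53 targets 0.13. Each of these lists had 0 members past 2-fold. Of the 23 p53 targets, 16 were above 0. They ran from GDF15 at −0.97 to the protease inhibitor gene SERPINB5 at 0.95, with the cell cycle inhibitor CDKN1A at −0.77. Hippo and YAP genes had 3 of 17 above 0 and 13 below, a median of −0.24 and AMOTL2 alone past 2-fold. Wnt genes had a median of −0.09, with RNF43, which clears Wnt receptors, 1.01 higher and the adhesion receptor CD44 at −0.69. Keratin and junction genes had a median of 0.17, with KRT23 and KRT20 2-fold higher, KRT7 2-fold lower and CDH1, E-cadherin, 0.98 higher. Heat shock proteins had a median of −0.03, with HSPE1 1.67 higher while its partner HSPD1 differed by −0.23, and NRF2 and metallothionein genes had a median of −0.13, with ABCC2 1.77 higher.

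**Figure D5:**
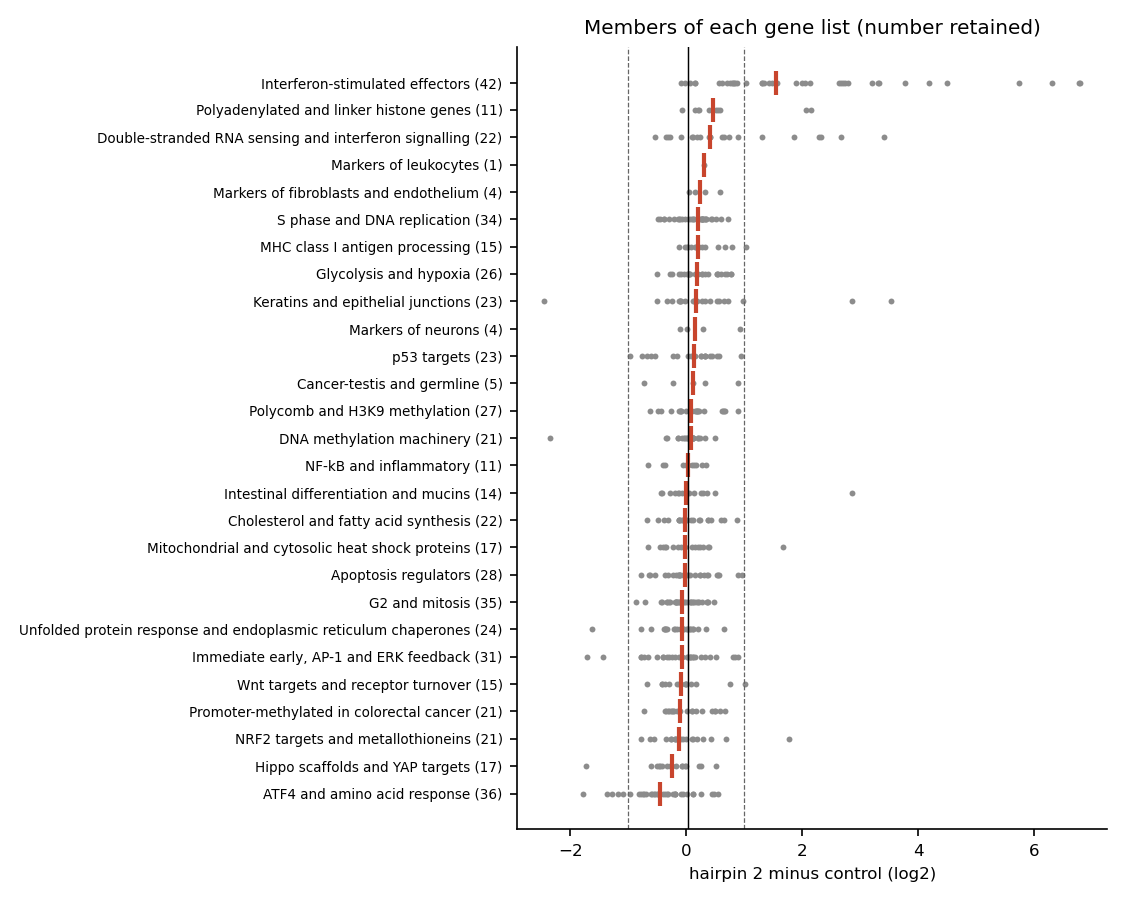
Each grey point is a retained member of a gene list, with hairpin 2 minus control (log2) on the x axis; the red bar is the list median, the number in brackets the members retained, the black line the median of all retained genes (0.03) and the dashed lines 2-fold. Interferon-stimulated effectors stand highest (median 1.54) and the ATF4 list lowest (−0.46).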

How the data were processed

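RNA of 3 HCT116 cultures was measured on single-colour Affymetrix arrays. The authors deposited log2 values per probe set, for which the submitters' processing notes name RMA and Affymetrix Expression Console. Versions, settings and centring are not given in the sources used here, the base of the logarithm was taken from the spread of the values, about 2 to 14, and no detection calls were used. Probe sets were named by the platform annotation: 41091 had 1 gene, 1801 several and 11721 none here. Of the named ones, 41037 matched a RefSeq table of GRCh38.p14 by gene identifier and 0 changed symbol.

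Differences, counts and medians were computed in Python 3.11.15 with pandas 2.3.3, and cyclic loess in limma 3.58.1 (R 4.3.3). The gene summary was tested on simulated data. No test was run, since each group is 1 array. SDs over probe sets measure agreement of probes on the same pair of arrays, not replicate error, and the number of arrays limits the precision. Named genes were UHRF1, UHRF2 and the DNMT genes, the 15 furthest in each direction, the 8 in each direction with the best agreement between probe sets, up to 5 members along and 1 against each list's median, and the 5 with probe sets furthest apart; other names were chosen after their values were seen. Alternatives covered the filter, the probe set of a gene, probe sets ending in _x_at, median centring, loess and the fold threshold. The members, the 28 lists and the alternatives were chosen with earlier results of these data known.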

Additional observations from a re-analysis of the deposited data

Results flagged for a closer look

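ANXA10, an annexin, was 2-fold from the control in opposite directions with the hairpins: hairpin 2 minus control was 1.73 and hairpin 5 minus control −1.22. It read 5.74 in control cells, 7.47 under hairpin 2 and 4.52 under hairpin 5, from 1 probe set, and the difference was not tested.

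Probe sets without a single gene name were not used in the comparison and also held differences. Of 2253 unnamed probe sets at or above the level of the filter, 24 were at least 2-fold higher with hairpin 2 (1.07%) and 8 lower (0.355%). The furthest read 6.23 in control cells, 9.89 under hairpin 2 and 6.15 under hairpin 5. Of 997 probe sets annotated to several genes, 14 were higher (1.40%) and 3 lower (0.301%). The furthest of these read 5.89, 10.45 and 6.42 in the same order. In both probe sets hairpin 2 stood apart from the other arrays.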

How the results depend on the processing

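No paired analysis was possible because each group is 1 array. Under no filter, a filter at the 60th percentile, choice by the control array alone, no _x_at probe sets, median centring and cyclic loess, genes 2-fold higher numbered 98 to 147 and genes 2-fold lower 52 to 83. Of these, choice by the control array gave 115 higher and 78 lower, and cyclic loess 123 and 83. Averaging the probe sets of a gene gave 85 higher and 28 lower, where the brightest probe set gave 137 and 68. Counting named probe sets singly gave 252 and 104. At 1.5-fold the counts were 704 higher, 372 lower and 300 with uniform probe sets. At 3-fold they were 48, 11 and 23. At 2-fold, 64 genes had several retained probe sets of uniform sign, and 28 with the filter at the 60th percentile. The median of interferon-stimulated effectors was 1.02 with no filter, 1.77 with the filter at the 60th percentile, and 1.34 with choice by the control array or with the mean of probe sets. The UHRF1 and ATF4 list values moved by less than the typical SD between probe sets, 0.196. Chosen after seeing the data, leaving out the interferon and antigen lists left 102 genes higher, and leaving out genes with a control level under the filter left 121.

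Of 183 named genes, 6 changed sign under an alternative: HELLS to −0.45 with choice by the control array, and with the mean of probe sets TAP2 to −0.0565, CSF1 to −0.061, MBD2 to −0.16, SOCS1 to 0.0595 and EGFR to −0.0176. A further 79 values of named genes moved by more than 0.196, for example with the mean of all probe sets KRT7 from −2.46 to −0.70 and IFIH1 from 3.42 to 1.22. The cause was not tested. With 1 array a side, no difference here has a replicate check, and values near background have no reliable fold.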
